A study of Rattus norvegicus with 12 samples.

Results

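The genes described here encode UDP-glucuronosyltransferases (Ugt) and cytosolic sulfotransferases (Sult) of the rat kidney. Members were the array rows annotated with exactly 1 symbol beginning with Ugt or Sult and a digit, which gave 22 genes (10 Ugt and 12 Sult, 1 row each) among 18166 genes tested. A further 5 rows carried several Ugt or Sult entries, among them the row shared by the Ugt1a genes and those shared by Ugt2b15 and Ugt2b37, and were not used. Kidney RNA from 12 rats was measured on 1 array each, after ischemia-reperfusion injury (IRI), in which blood flow to the kidney is stopped and then restored. All 4 groups had this injury and held 3 animals each: day 2 with placebo, day 2 with anti-miR-182 (an inhibitor of the microRNA miR-182), day 7 with placebo, and day 7 with the inhibitor. Group and day came from the sample titles, which give each array its own animal code, although another label names a zero-hour biopsy. Strain, age, sex, the inhibitor's dose, route and time, and an uninjured or untreated group were not given in the sources used here.

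The microRNA that the inhibitor is directed at is shown with its seed, bases 2 to 8, in capitals. It was taken from RefSeq (GRCr8, chr4:59752249-59752273, minus strand).

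rno-miR-182: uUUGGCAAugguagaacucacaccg

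The row of the Mir182 gene was the 1 row called in any treatment comparison, at a log2 difference of 1.45 ± 0.17 (SE) over both days (adjusted p = 0.0104 in limma). It lay higher, not lower, under the inhibitor, and which form of the RNA this row detects is not given in the sources used here.

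Both enzyme families join a polar group to a drug, steroid, bile acid or phenol, so that the product dissolves in water and can be exported into urine or bile. Ugt enzymes sit in the endoplasmic reticulum and mostly use UDP-glucuronic acid, whereas Sult enzymes are cytosolic and use the sulfate donor PAPS. In the kidney, glucuronidation is known mainly from the proximal tubule, which also takes up organic anions from blood and secretes conjugates.

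Values are deposited log2 signals. A gene was called well expressed where its mean over the 12 arrays reached the median of that mean over all genes, 6.42. This held for 6 members: Ugt2b7, Ugt2b35, Ugt8, Sult1c2a, Sult1a1 and Sult1b1. Each of them reached that level in the mean of all 4 groups. Just inside the limit lay Ugt8 with a mean of 7.85, and just outside it Sult2b1 with 6.05. The other 16 members had means from 2.73 to 6.05. Of the proximal tubule markers, 15 of 15 were at or above the median. Of the markers of other organs in which these enzymes abound, 0 of 6 hepatocyte genes (means 4.73 to 5.96, albumin included) and 0 of 6 adrenal cortex genes reached it.

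Array correlations within groups were 0.978 or more, and a gene's median SD ran from 0.112 for placebo to 0.179 for anti-miR-182, both at day 2. Replicate 3 of the latter group stood apart in tubular injury genes, with a mean of 8.25 over 8 markers against 9.15 and 9.22. In all 6 well expressed members this animal also had the highest signal of its group. The median signal of an array was 6.42 to 6.57 at day 2 and 6.30 to 6.38 at day 7, and 190 control rows lacked values on the day 2 arrays. Day after injury and any separate normalization of the days therefore cannot be told apart, and the day comparisons were repeated with every array brought to a common median or a common distribution. In these bulk samples, fewer cells of a type and less RNA per cell cannot be told apart either.

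The first question was how expression of the family moved from day 2 to day 7 in placebo kidneys. Ugt2b7, Ugt2b35 and Sult1c2a fell, and Sult1a1, Sult1b1 and Ugt8 did not pass the test. Among the members of low signal, 6 fell and 1, Ugt2b, rose. Of all 22 members, 9 were lower at an adjusted p under 0.05 (limma, Benjamini-Hochberg over all genes), where 23.7% of all genes were, and 1 was higher, where 4.22% were. The median log2 difference was -1.04 over the 6 well expressed members, -0.37 over all members and -0.18 over all genes.

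Ugt2b7, whose human namesake glucuronidates opioids, steroids and fatty acids, had log2 signals of 9.28, 9.96 and 9.63 in placebo at day 2 and 6.87, 7.94 and 6.03 at day 7. The groups did not overlap, and the day 7 animals were spread over 1.91 log2 units. The difference was -2.68 ± 0.51 (SE), a signal 6.39-fold lower at day 7 (adjusted p = 0.00276 in limma). Over the 20 alternative settings the difference stayed between -3.17 and -2.22 and the adjusted p between 0.000502 and 0.0144.

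Ugt2b35, a neighbouring gene of the same subfamily, stood at 9.62, 9.73 and 9.49 in placebo at day 2 and at 7.83, 7.27 and 7.84 at day 7. The 3 day 2 animals lay within 0.25 of each other, and all 3 day 7 animals lay well below them. The difference was -1.97 ± 0.45 (SE), or 3.91-fold (adjusted p = 0.00679 in limma, 0.00128 to 0.0261 over 20 settings).

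Sult1c2a, a cytosolic sulfotransferase of the 1C subfamily, had signals of 10.97, 11.41 and 11.35 in placebo at day 2 and 10.44, 9.87 and 9.78 at day 7. The groups did not overlap, and the difference was -1.21 ± 0.25 (SE), or 2.32-fold (adjusted p = 0.00369 in limma, 0.000668 to 0.0281 over 20 settings).

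Sult1b1, which sulfates thyroid hormones and other phenols, gave 8.54, 9.65 and 9.25 in placebo at day 2 and 8.43, 8.34 and 8.07 at day 7. All 3 day 7 values were below all day 2 values, but the nearest animals differed by little. The difference of -0.87 ± 0.32 (SE) missed the threshold (adjusted p = 0.0571 in limma). It passed in 4 of 20 settings, with array weights and without replicate 1 of placebo, 1 of anti-miR-182 or 3 of anti-miR-182 at day 2.

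Sult1a1, the main phenol sulfotransferase, had 9.17, 9.69 and 9.501 in placebo at day 2 and 9.39, 8.86 and 8.70 at day 7, with replicate 1 of day 7 inside the day 2 range. The difference was -0.47 ± 0.20 (SE; adjusted p = 0.0883 in limma) and passed with array weights or without that animal, with a lowest adjusted p of 0.0275.

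Ugt8 differs from the other members in its reaction, since it transfers galactose to ceramide and makes the glycolipids that are later sulfated. Its placebo signals were 7.55, 7.98 and 7.97 at day 2 and 8.78, 7.90 and 6.91 at day 7. The day 7 animals spread on both sides of the day 2 animals, with a difference of 0.03 ± 0.35 (SE; adjusted p = 0.956 in limma).

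**Figure D1:**
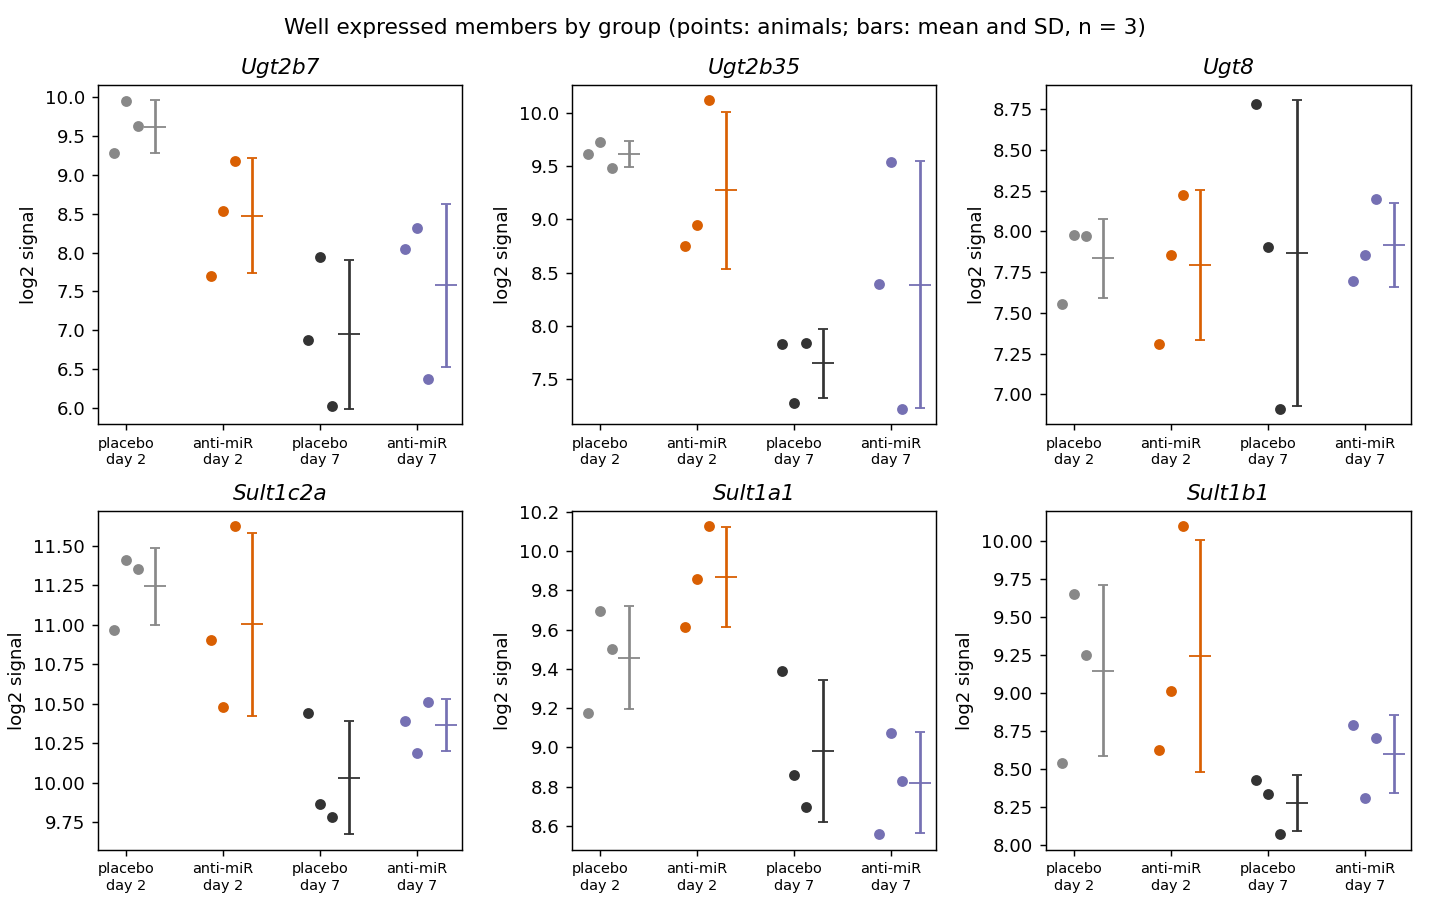
Log2 signal of the 6 well expressed members in each animal (points, replicates 1 to 3 from left to right) and the mean and SD of each group (n = 3), on a separate y axis for each gene. In placebo, Ugt2b7, Ugt2b35, Sult1c2a and Sult1b1 show no overlap between day 2 and day 7, and under anti-miR-182 only Sult1a1 among these 6 does not overlap. The share of all genes without overlap between days is not given here, so this does not set these members apart from other genes.

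The same question was asked under anti-miR-182. There Sult1a1 was the 1 well expressed member that fell, and in all 5 members were lower (24.9% of all genes) and 1, again Ugt2b, was higher (2.68%). The median difference was -0.77 over the well expressed members, -0.33 over all members and -0.21 over all genes.

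Sult1a1 under anti-miR-182 had signals of 9.62, 9.86 and 10.13 at day 2 and 8.56, 9.07 and 8.83 at day 7. The groups did not overlap, and the difference was -1.05 ± 0.20 (SE), or 2.07-fold (adjusted p = 0.00267 in limma, 0.00148 to 0.0232 over 20 settings).

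Ugt2b7 under anti-miR-182 gave 7.70, 8.53 and 9.19 at day 2 and 8.05, 8.32 and 6.37 at day 7. Only replicate 3 of day 7 lay below the day 2 range, and the difference was -0.89 ± 0.51 (SE; adjusted p = 0.204 in limma). Without that animal it was -0.29.

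Ugt2b35 gave 8.75, 8.95 and 10.12 at day 2 and 8.40, 9.54 and 7.22 at day 7. Here too replicate 3 was the lowest animal of day 7, but replicate 2 lay above 2 of the day 2 animals. The difference was -0.89 ± 0.45 (SE; adjusted p = 0.149 in limma). Without replicate 2 of day 7 it was -1.47 and passed (adjusted p = 0.0170), and without replicate 3 it was -0.30.

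Sult1c2a under anti-miR-182 had 10.90, 10.48 and 11.62 at day 2 and 10.39, 10.19 and 10.51 at day 7. The groups overlapped narrowly, and the difference of -0.64 ± 0.25 (SE; adjusted p = 0.0657 in limma) passed only without replicate 2 of day 2 (adjusted p = 0.0232). Sult1b1 had 8.62, 9.02 and 10.10 at day 2 and 8.79, 8.31 and 8.70 at day 7, a difference of -0.64 ± 0.32 (SE; adjusted p = 0.145 in limma), which passed only without replicate 1 of day 2 (adjusted p = 0.0419). Ugt8 had 7.31, 7.85 and 8.22 at day 2 and 7.70, 7.86 and 8.20 at day 7, a difference of 0.12 ± 0.35 (SE; adjusted p = 0.817 in limma).

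A call in one treatment and not in the other does not show that the courses differed, so the difference itself was tested. The change from day 2 to day 7 was less negative under anti-miR-182 by 1.78 ± 0.73 (SE) for Ugt2b7 (unadjusted p = 0.0281, adjusted p = 0.9995 in limma), by 1.08 ± 0.63 for Ugt2b35 and by 0.57 ± 0.35 for Sult1c2a, and more negative for Sult1a1, at -0.57 ± 0.28. For these members the adjusted p was 0.9995 and ranged from 0.814 to 1.0 over 20 settings, so that none of the differences in course passed. In this test 0 members and 0% of all genes were called, and at an unadjusted p under 0.05 the share was 3.92% of all genes and 1 member, Ugt2b7.

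**Figure D2:**
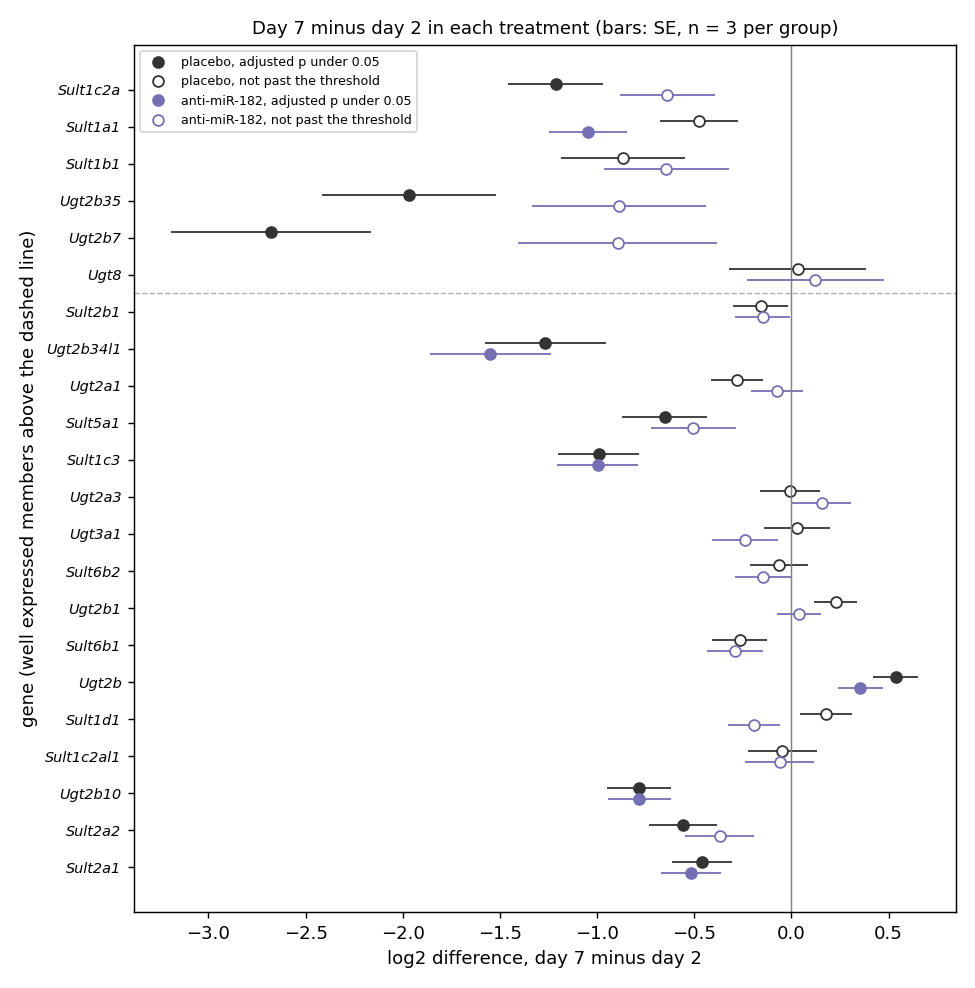
Log2 difference between day 7 and day 2 for each of the 22 members in placebo (black) and under anti-miR-182 (purple), with SE bars; filled points have an adjusted p under 0.05 in limma, and the 6 well expressed members stand above the dashed line. Ugt2b7 and Ugt2b35 reach -2.68 and -1.97 in placebo, and Ugt2b is the 1 filled point to the right of 0 in each treatment.

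Ugt2b7, Ugt2b35 and Ugt2b stand near each other on chromosome 14, yet the first pair fell in placebo and Ugt2b rose. In RefSeq (GRCr8), Ugt2b lies at chr14:20985449-21006267, Ugt2b35 at chr14:21208389-21245893 and Ugt2b7 at chr14:21251535-21274451, all on the plus strand. The 200 bases upstream of the start that the RefSeq promoter table uses for each are shown because the 3 windows share a run of 25 bases, which was noticed after the sequences were read and is given in capitals. The windows are chr14:21251335-21251534 for Ugt2b7, chr14:21208241-21208440 for Ugt2b35 and chr14:20985249-20985448 for Ugt2b. For Ugt2b35 that start lies inside the gene span given above, so the last 52 bases of its window belong to the span.

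Ugt2b7: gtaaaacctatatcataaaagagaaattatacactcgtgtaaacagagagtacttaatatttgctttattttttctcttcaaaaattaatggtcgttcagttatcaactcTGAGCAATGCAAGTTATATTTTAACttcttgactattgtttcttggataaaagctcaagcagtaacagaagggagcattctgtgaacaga
Ugt2b35: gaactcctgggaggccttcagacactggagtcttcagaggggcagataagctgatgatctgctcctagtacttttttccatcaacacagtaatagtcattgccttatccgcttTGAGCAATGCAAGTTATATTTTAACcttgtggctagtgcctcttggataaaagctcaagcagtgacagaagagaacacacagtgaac
Ugt2b: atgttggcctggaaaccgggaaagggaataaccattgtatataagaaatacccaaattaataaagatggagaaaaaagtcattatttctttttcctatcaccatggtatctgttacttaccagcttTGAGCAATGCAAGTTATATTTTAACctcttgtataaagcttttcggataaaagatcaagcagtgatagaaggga

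The run begins 90 bases upstream of the table's start in Ugt2b7, 87 in Ugt2b35 and 74 in Ugt2b. It was found in 6 of 27457 windows of this length (0.0219%), all of them of Ugt2b genes, namely these 3 and Ugt2b15, Ugt2b37 and Ugt2b7l1. The run was chosen because windows shown here share it, so its presence in Ugt2b7 and Ugt2b35 was fixed by that choice. This share therefore cannot link the run to the course of any member. Of the 3 members with the run, Ugt2b7 and Ugt2b35 fell in placebo. Ugt2b rose at a low signal, with a mean of 3.90 that only 7.34% of all genes lay below. The part of the run in these courses was not tested. The same windows were searched for 5 short motifs in the 21 members that the promoter table holds (Ugt2a1 was not among them), of which 8 windows overlap the gene's span. The HNF1 half-site GTTAAT, on either strand, was in 3 members and 5.11% of all windows, the HNF4 site CAAAGTNCA in 1 member, Sult1b1, 62 to 54 bases upstream, and 0.856% of windows, and the aryl hydrocarbon receptor core GCGTG in 3 members and 23.8% of windows. The antioxidant element core TGACNNNGC was in 0 members and 8.54% of windows. TATAAA on the gene's strand was in 3 members, Sult2a1, Sult2a2 and Ugt2b, and 6.91% of windows. None of these letters were found in the windows of Ugt2b7 or Ugt2b35. The search took these exact letters only, so sites spelled otherwise were not looked for and may be present.

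Of the 7 members of low signal that were called, 6 were lower at day 7 in placebo, where 84.9% of all genes called were lower. Hepatocyte genes with signals below the median also differed: the 6 markers had medians of -0.29 in placebo (3 called lower) and -0.28 under anti-miR-182 (2 called lower). Among them albumin, Alb, fell by 0.37 ± 0.11 and 0.44 ± 0.11 (SE; adjusted p = 0.0265 and 0.0115 in limma). The 6 adrenal cortex markers, also below the median, had medians of 0.01 in placebo (1 called lower and 1 higher) and -0.14 under anti-miR-182 (1 called lower). Values after rescaling are not given for either list. Ugt2b34l1, from the same chromosome 14 cluster, had 6.33, 5.54 and 6.09 in placebo at day 2 and 4.78, 4.82 and 4.56 at day 7. Under anti-miR-182 it had 5.80, 6.42 and 7.49 at day 2 and 4.86, 5.05 and 5.16 at day 7. All 6 day 7 animals lay below all 6 day 2 animals, and the gene fell by 1.27 ± 0.31 in placebo (adjusted p = 0.010 in limma) and by 1.55 ± 0.31 under anti-miR-182 (adjusted p = 0.00363). Its anti-miR-182 difference was -1.09 without replicate 3 of day 2.

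Sult1c3, a second sulfotransferase of the 1C cluster on chromosome 9, had 6.11, 5.43 and 5.28 in placebo at day 2 and 4.53, 4.53 and 4.78 at day 7, and 6.14, 5.42 and 6.04 against 4.82, 4.80 and 4.99 under anti-miR-182. It fell by 0.99 ± 0.21 in placebo and by 0.996 ± 0.21 under anti-miR-182 (SE; adjusted p = 0.00455 and 0.0045 in limma). Ugt2b10 fell by 0.78 ± 0.16 in both treatments, from 3.57 to 4.10 at day 2 to 2.89 to 3.19 at day 7 in placebo, and from 3.55 to 3.95 to 2.75 to 3.20 under anti-miR-182 (adjusted p = 0.00424 and 0.00432 in limma). Ugt2b34l1, Sult1c3 and Ugt2b10 did not overlap between days in either treatment, for which no share over all genes is given.

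Ugt2b moved the other way. Its signals were 3.67, 3.48 and 3.57 in placebo at day 2 and 4.06, 4.11 and 4.16 at day 7, and under anti-miR-182 they were 4.01, 3.67 and 3.69 at day 2 and 4.22, 4.17 and 4.03 at day 7. All 6 day 7 animals lay above all 6 day 2 animals. It rose by 0.54 ± 0.12 in placebo (adjusted p = 0.00536 in limma) and by 0.35 ± 0.12 under anti-miR-182 (adjusted p = 0.0370). The second call ended without any 1 of 5 arrays, the highest adjusted p being 0.128.

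The hydroxysteroid sulfotransferases Sult2a1 and Sult2a2 and the less studied Sult5a1 were lower at day 7 in placebo by 0.46 ± 0.16, 0.56 ± 0.18 and 0.65 ± 0.22 (SE; adjusted p = 0.0409, 0.0304 and 0.0399 in limma), and Sult2a1 also under anti-miR-182, by 0.52 ± 0.16 (adjusted p = 0.0257). Sult2a1 lay between 2.17 and 3.18 on all arrays. These calls did not hold in every setting. They ended after either rescaling of the arrays, and in placebo also without any 1 of 5 arrays for Sult2a1, 3 for Sult2a2 and 5 for Sult5a1, and under anti-miR-182 without any 1 of 2 arrays for Sult2a1. The remaining 9 members of low signal were called in no comparison.

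With each array centred on its median, 7 members were called in placebo (6 lower and 1 higher) and 5 under anti-miR-182 (4 lower and 1 higher), and quantile normalization gave the same genes. After centring, 9.62% of all genes were lower and 8.15% higher in placebo, and 7.44% and 6.23% under anti-miR-182. The members lost were Sult2a1, Sult2a2 and Sult5a1 in placebo and Sult2a1 under anti-miR-182. Of all genes called in placebo, 84.9% were lower as deposited, 54.2% after centring and 49.3% after quantile normalization, and under anti-miR-182 the shares were 90.3%, 54.4% and 51.4%. Rescaling moved the median of all genes from -0.18 to -0.03 by centring and from -0.21 to -0.02. Ugt2b7, Ugt2b35, Sult1c2a, Sult1c3, Ugt2b10 and Ugt2b34l1 in placebo thus stayed called against this shift, as did Sult1a1, Sult1c3, Ugt2b10 and Ugt2b34l1 under anti-miR-182.

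The second question was whether anti-miR-182 altered these enzymes on either day. At day 2 limma called 0 of 22 members and 0% of all genes, and at day 7 likewise 0 members and 0% of all genes. Over the mean of both days it called 0 members and 0.0055% of all genes, which is Mir182 alone. At an unadjusted p under 0.05 there were 2 members at day 2, Ugt2b1 and Ugt2b7 (6.61% of all genes), 0 at day 7 (3.26%) and 1 over both days, Ugt2b1 (5.27%). A p that misses the threshold with 3 animals a group does not show that the groups were alike.

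At day 2, all 3 Ugt2b7 signals under anti-miR-182 (7.70 to 9.19) lay below all 3 under placebo (9.28 to 9.96), although the nearest pair differed by less than 0.1. The difference was -1.15 ± 0.51 (SE), or 2.22-fold, with an adjusted p of 0.754 in limma (0.457 to 0.999 over 21 settings). It was -0.76 without replicate 1 of anti-miR-182 and -1.50 without replicate 3. At day 7 the sign was the opposite, 0.63 ± 0.51 (adjusted p = 0.999 in limma), with overlapping groups and a difference of 1.24 without replicate 3 of anti-miR-182 and 0.26 without replicate 2.

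Ugt2b35 differed by -0.34 ± 0.45 at day 2 and 0.74 ± 0.45 at day 7 (SE; adjusted p = 0.913 and 0.999 in limma), and the groups overlapped on both days. The day 7 difference ran from 0.16 without replicate 2 of anti-miR-182 to 1.32 without replicate 3. Sult1c2a differed by -0.24 ± 0.25 and 0.33 ± 0.25, and Sult1a1 by 0.41 ± 0.20 and -0.16 ± 0.20. Sult1b1 differed by 0.10 ± 0.32 and 0.32 ± 0.32, and Ugt8 by -0.04 ± 0.35 and 0.05 ± 0.35. The median over the well expressed members was -0.14 at day 2 and 0.33 at day 7, against 0.03 and -0.00078 over all genes. These medians rest on few animals, since without single arrays the day 2 value ran from -0.44 to 0.06 and the day 7 value from 0.19 to 0.52.

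**Figure D3:**
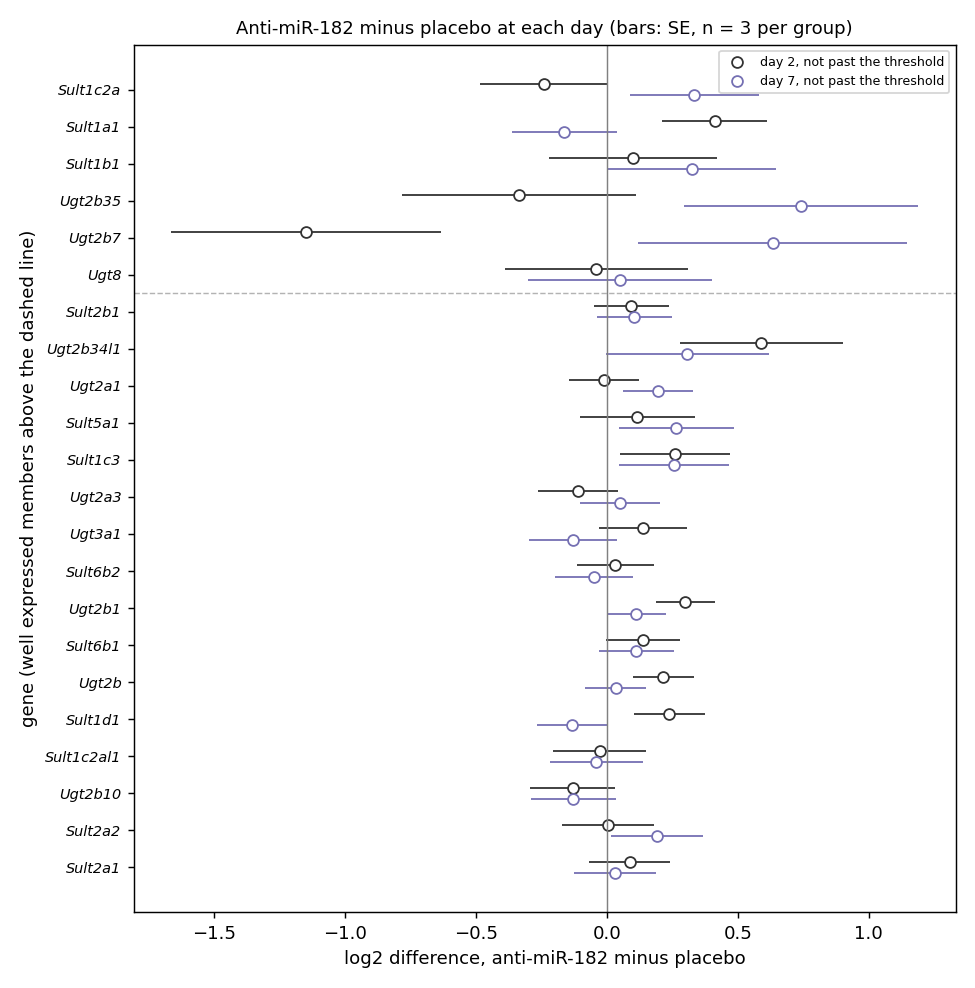
Log2 difference between anti-miR-182 and placebo for each of the 22 members at day 2 (black) and day 7 (purple), with SE bars; all points are open because no member had an adjusted p under 0.05 in limma, and the 6 well expressed members stand above the dashed line. Ugt2b7 has a difference of -1.15 at day 2 and 0.63 at day 7.

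Counts of members whose treatment groups did not overlap are given beside the same share over all genes. At day 2, Ugt2b1 was higher under anti-miR-182 in all animals (1 of 22, against 8.06% of all genes) and Ugt2b7 lower (1 of 22, against 4.24%). At day 7, 4 members of low signal were higher, namely Sult1c3, Ugt2a1, Ugt2b1 and Ugt2b34l1 (against 3.5% of all genes), and 0 were lower (against 3.75%). Ugt2b1, singled out after its values were seen, had 4.01, 4.04 and 3.72 in placebo and 4.17, 4.15 and 4.35 under anti-miR-182 at day 2, and 4.18, 4.18 and 4.09 against 4.28, 4.20 and 4.31 at day 7. Its differences were 0.30 ± 0.11 and 0.11 ± 0.11 (SE; adjusted p = 0.722 and 0.999 in limma). At day 7 the groups were separated by about 0.01 only.

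Levels of cell type markers are given beside these differences. The mean log2 signal of the 15 markers was 10.45, 10.42 and 10.29 at day 2 with placebo and 9.98, 10.55 and 10.51 with anti-miR-182. At day 7 it was 9.51, 9.49 and 9.33 with placebo and 10.08, 9.999 and 9.16 with anti-miR-182. Among animals given the inhibitor, replicate 1 of day 2 and replicate 3 of day 7, the lowest of their groups, were also the lowest in Ugt2b7 and Ugt2b35. In placebo this order held in part. There replicate 3 had the lowest marker mean on both days, and it was also the lowest in Ugt2b35 at day 2 and in Ugt2b7 at day 7. However, it had the highest Ugt2b35 at day 7, and Ugt2b7 at day 2 was lowest in replicate 1. From day 2 to day 7, 9 of the 15 markers fell in placebo (median -0.74) and 5 under anti-miR-182 (median -0.34), which became 5 and 2 after centring and 4 and 1 after quantile normalization. The median for anti-miR-182 against placebo was -0.11 at day 2 and 0.32 at day 7, with 0 markers called in limma and 0 and 4 at an unadjusted p under 0.05. Ugt8 differed by 0.03 and 0.12 between days where these markers were lower. The treatment differences of Ugt2b7, Ugt2b35, Sult1c2a and Ugt8 had the signs of the marker medians on both days. Those of Sult1b1 had the same sign at day 7 only, and those of Sult1a1 had the opposite signs on both days. Without single arrays the sign turned for Ugt8 on both days, for Sult1c2a and Sult1b1 at day 2 and for Sult1a1 at day 7. The treatment difference at day 7 minus that at day 2 had a median of 0.40 over the markers (14 higher, 1 lower, 0 called). Over the well expressed members this median was also 0.40 (5 higher, 1 lower, 0 called), but it ran from 0.22 to 0.77 without single arrays. The 8 injured tubule markers had a similar median of 0.43 (6 higher, 2 lower, 0 called), and the 4 perirenal fat markers had 0.11. The other lists of cell type markers had negative medians, from -0.53 for endothelium to -0.05 for hepatocyte markers.

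Markers of other cell types were also compared between days. Of all genes, 23.7% were called lower in placebo and 24.9% under anti-miR-182, and 4.22% and 2.68% higher. The medians of all genes were -0.18 and -0.21. Values after rescaling are not given for the lists that follow. The median of 5 distal and connecting tubule markers was -0.75 in placebo (2 called lower) and -1.08 under anti-miR-182 (4 called lower). That of 7 collecting duct markers was -0.07 (2 called lower, near the share over all genes) and -0.61 (4 called lower). The 2 thick limb markers had medians of 0.18 and -0.21, with 0 called. The 8 injured tubule markers had -0.12 in placebo (1 called lower) and 0.15 under anti-miR-182 (1 called lower and 2 higher). The 6 macrophage markers were all higher at day 7, with medians of 0.54 in placebo (2 called) and 0.27 under anti-miR-182 (1 called), and their mean level in placebo at day 7 was 6.87, 8.31 and 7.26, with replicate 2 apart. The 4 fibroblast markers had medians of 0.45 (1 called higher) and 0.02 (0 called). The 2 endothelium markers had 0.32 (0 called) and -0.21 (1 called lower), and the 4 urothelium markers 0.25 and 0.006 (0 called). For anti-miR-182 against placebo, 0 markers of these lists were called. Medians at day 2 and day 7 were 0.23 and -0.18 for collecting duct, -0.53 and -0.08 for injured tubule and -0.03 and -0.41 for macrophage markers. The part of these marker levels in the differences of Ugt2b7, Ugt2b35 and the sulfotransferases was not tested.

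**Figure D4:**
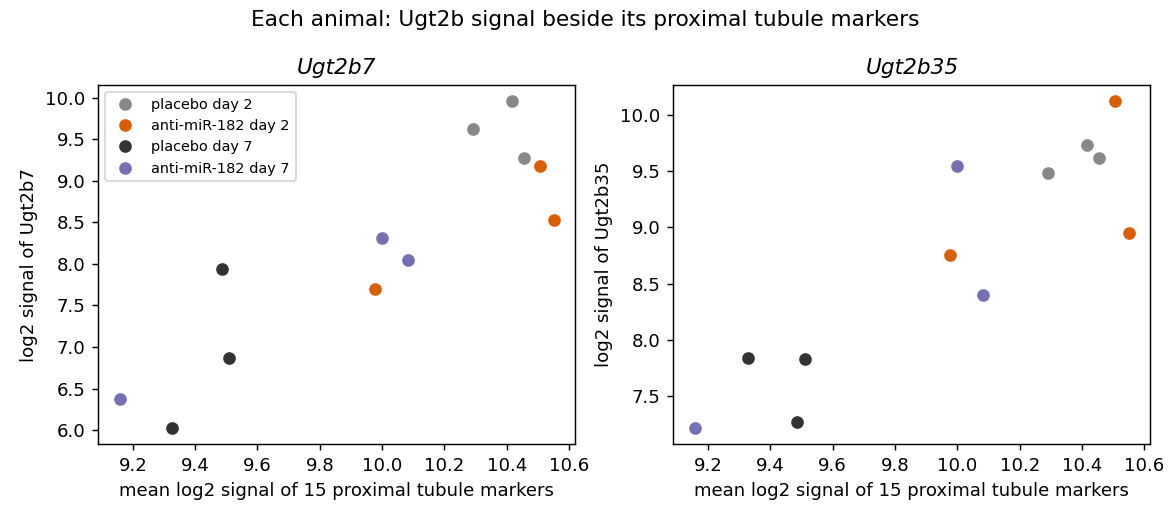
Log2 signal of Ugt2b7 (left) and Ugt2b35 (right) in each of the 12 animals against the mean log2 signal of 15 proximal tubule markers in the same animal, coloured by group. The placebo animals of day 7 lie at the left of both panels together with 1 inhibitor-treated animal of day 7, replicate 3, which has a marker mean of 9.16. These animals are the lowest in Ugt2b35. In Ugt2b7, replicate 2 of placebo at day 7 stands at 7.94, above replicate 1 of anti-miR-182 at day 2 with 7.70.

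Genes that serve conjugation were read from lists of their own. Each count lower as deposited stands against the 23.7% of all genes called lower at day 7 for placebo animals, or the 24.9% for those given the inhibitor. Counts higher stand against 4.22% and 2.68%. After centring the shares were 9.62% and 7.44% lower, and 8.15% and 6.23% higher. After quantile normalization they were 7.90% and 7.62% lower, and 8.14% and 7.22% higher. Of 12 genes that make or carry the co-substrates, 6 were lower at day 7 in placebo (median -0.48) and 5 under anti-miR-182 (median -0.35), and 0 were higher. After centring, 4 and 2 were called, the latter being Ugdh and Bpnt1, and quantile normalization gave the same genes. Ugdh, which makes UDP-glucuronic acid, fell by 1.10 ± 0.18 in placebo and 0.82 ± 0.18 under anti-miR-182 (SE; adjusted p = 0.000978 and 0.0053 in limma). Its carrier into the endoplasmic reticulum, Slc35d1, fell by 0.79 ± 0.12 and 0.51 ± 0.12. Bpnt1, which clears the by-product of sulfation, fell by 0.96 ± 0.15 and 0.99 ± 0.15, and Slc35b2, a Golgi carrier of PAPS, by 0.65 ± 0.14 and 0.40 ± 0.14.

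Of 6 genes that remove the added groups, 2 were lower in placebo and 3 under anti-miR-182. Sumf1, which activates sulfatases, fell in both, by 0.66 ± 0.13 and 0.73 ± 0.13, whereas the sulfatase Arsb passed in placebo (-0.57 ± 0.18) and Arsa (-0.71 ± 0.12) and the glucuronidase Gusb (-0.36 ± 0.12) passed under anti-miR-182. After either rescaling, Sumf1 and, under anti-miR-182, Arsa stayed called. Among 4 measured pumps of conjugates, Abcc4 and Abcc3 fell in placebo by 0.76 ± 0.17 and 0.30 ± 0.10, and 0 passed under anti-miR-182, also at an unadjusted p under 0.05. After centring Abcc4 alone was called in placebo, and after quantile normalization 0 were.

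Of 11 measured regulators of these enzymes, 5 were lower in placebo and 3 under anti-miR-182, the latter near the share over all genes. The vitamin D receptor Vdr fell by 1.06 ± 0.16 and 0.90 ± 0.16, the fatty acid receptor Ppara by 1.14 ± 0.23 and 1.03 ± 0.23, and the antioxidant factor Nfe2l2 by 0.50 ± 0.11 and 0.52 ± 0.11. The bile acid receptor Nr1h4 fell in placebo by 0.71 ± 0.17 and had -0.39 ± 0.17 under anti-miR-182 (adjusted p = 0.106 in limma). After either rescaling, Vdr and Ppara stayed called in both treatments, and Nfe2l2 stayed called in placebo after centring only. The aryl hydrocarbon receptor Ahr was then called higher at day 7, in placebo after either rescaling and under anti-miR-182 after quantile normalization. The Golgi sulfotransferases, which sulfate proteins and glycans, had medians of -0.06 and -0.08 as deposited, which turned to 0.09 and 0.11 after centring. Of 31 measured, 4 were lower and 1 higher in placebo, and 7 lower and 1 higher under anti-miR-182. In placebo, 2 were lower and 4 higher after centring, and 2 lower and 5 higher after quantile normalization. Under anti-miR-182, 3 were lower and 2 higher after either rescaling. The heparan sulfate enzyme Hs6st2 fell by 0.74 ± 0.10 and 0.71 ± 0.10, and the tyrosine sulfotransferase Tpst1 rose by 0.58 ± 0.12 and 0.40 ± 0.12, and both stayed called after either rescaling. For anti-miR-182 against placebo, limma called 0 genes of these 5 lists at either day. At an unadjusted p under 0.05 there were 4 of 64 at day 2 (6.61% of all genes) and 2 at day 7 (3.26%), near the shares over all genes.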

How the data were processed

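Kidney RNA of 12 rats was hybridised to 12 whole-transcript arrays. Per the submitters' processing notes the authors used RMA, and the deposited values are log2 signals; RMA's version, and whether it was run on both days together, were not given in the labels. Of 36685 rows, 18511 had 1 gene symbol, 575 several and 17599 were not listed in the platform annotation. The row with the highest mean stood for a gene, giving 18166 genes. All 22 members matched RefSeq (GRCr8) by gene ID. Related genes may share signal in one another's rows.

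Limma 3.58.1 in R 4.3.3 (lmFit, eBayes) fitted 4 group means to all genes, and 6 comparisons were drawn, two-sided, with Benjamini-Hochberg adjustment over all genes and a threshold of 0.05. The fit was tested on simulated data. Every well expressed member was named, and of the others those called in any comparison; of each list of conjugation genes, up to 4 genes with the smallest unadjusted p. Members and lists were chosen with earlier results of these data known. The titles give separate animals, and replicate numbers follow accession order. With 3 arrays per group, the number of arrays and the spread between animals limit the precision. Alternatives were other eBayes options, array weights, filters on dim genes, 2 rescalings, other thresholds, gene means and leaving out each array. The rescalings were also applied to the conjugation lists and the proximal tubule markers after their values were seen.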

Additional observations from a re-analysis of the deposited data

How the results depend on the processing

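In the treatment comparisons and in the difference between courses, 0 members were called under every alternative. The count for day 7 against day 2 in placebo, 10, became 4 without the dimmest 25% of genes (8 members tested; 27.7% of all genes lower), 3 without the dimmest 50% (6 tested; 34.3%) and 4 with a log2 difference of 1 or more also required; without single arrays it ran from 7 to 11. Under anti-miR-182 the count, 6, became 2 (26.2% of all genes lower), 1 (27.4%) and 2, and ran from 5 to 7. The filters test fewer members by construction.

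Signs turned only in differences that were not called. The largest of these were -0.24 for Sult1c2a at day 2 and -0.16 for Sult1a1 at day 7, anti-miR-182 against placebo. With array weights, Sult1b1 at day 2 was -0.12 and Ugt8 at day 7 -0.049 for anti-miR-182 against placebo; the cause was not tested. Without single arrays, this difference ran at day 2 from -0.33 to 0.41 for Sult1b1, from -0.55 to 0.021 for Sult1c2a and from -0.25 to 0.20 for Ugt8, and at day 7 from -0.31 to 0.042 for Sult1a1 and from -0.43 to 0.51 for Ugt8. Ugt8 at day 7 against day 2 ran from -0.43 to 0.51 in placebo and from -0.12 to 0.34 under anti-miR-182. Of 826 recomputed values of named members, 770 kept their direction and their side of the threshold, 30 lost the call, 11 gained it and 15 turned sign. Many of these settings could not change the difference itself. The eBayes options, the filters on dim genes, gene means and leaving out an array of an uncompared group all return the same difference. The counts therefore do not measure how stable the differences are. No paired analysis was possible because the replicate numbers are given in accession order and pair no animals.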
